A study of Homo sapiens with 4 samples.

Results

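The genes described here encode the protein components of the cytoplasmic ribosome. They were chosen by symbol: every non-control spot whose platform symbol is RPL or RPS followed by digits and at most an A, L, X or Y suffix, together with RPLP0, RPLP1, RPLP2 and RPSA where spotted. The rule found 66 spots of 63 genes, 42 of the large subunit and 21 of the small subunit, among 12222 genes with a single platform symbol. All 63 genes entered the comparison of treated with untreated RNA, which tested 8470 genes. The human reference annotation holds 81 genes that fit the rule. The other 18, RPSA and RPLP0 among them, had no spot under their own platform symbol.

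The large subunit, whose proteins carry the prefix RPL, joins amino acids into peptides. The small subunit, with the prefix RPS, reads the messenger RNA. Ribosomal protein transcripts are among the most abundant in dividing cells, and most begin with a C inside a run of pyrimidines, the 5′ terminal oligopyrimidine tract, through which growth signals set how much of each message is translated. Several of these proteins also act outside the ribosome: RPL5, RPL11, RPL23 and RPS7 bind MDM2, the ubiquitin ligase that keeps p53 low.

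DLD-1 and HT-29 are established human colorectal cancer cell lines. Treated cells of each line were plated for 24 h and then exposed for 96 h to 1 µM 5-aza-2'-deoxycytidine, which is built into DNA, binds DNA methyltransferases there and so lowers methylation over cell divisions; each line's untreated cells served as the comparison. Both were grown in RPMI1640 with fetal bovine serum. On array 1 of each line the treated RNA carried Cy5 and the untreated RNA Cy3, and on array 2 the dyes were exchanged, so there were 4 arrays in all. The labels do not name separate cultures, so each line counted as 1 replicate. The test came to use 1 standard error pooled over genes. A p-value therefore follows the size of a gene's mean and does not measure how far its own 2 lines differ.

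Each ratio is the log2 of file channel 2 over file channel 1 after background correction and 1 loess curve per array. On array 1 of both lines, channel 2 is the treated RNA by every label. On array 2 the direction is not settled: the labels put the treated RNA in channel 1, while an earlier analysis of these data, with the values in view, took channel 2 as treated on all 4 arrays. Line means are given with channel 2 as treated throughout, called the channel 2 reading, unless they are said to be in the labels' channel order, in which the sign of array 2 is turned. Of the colon epithelium markers, 8 of 10 were above background in both channels on all 4 arrays. CDX1 reached that on 1 array and LGALS4 only on the 2 HT-29 arrays. Of the fibroblast markers, 3 of 5 did so on all 4 arrays and VIM on none. Of 4 spotted leukocyte markers, 2 did so. Over all named genes, 6465 of 12206 were above background in both channels on all 4 arrays. The marker counts therefore do not show which cell types were present. The part of these markers in the results was not tested. In RNA from whole cultures, fewer cells of a type and less RNA per cell cannot be told apart.

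To show the tract that these transcripts share, and where its members differ, promoter windows were read from RefSeq, assembly GRCh38.p14, from 40 bases before to 20 bases from the annotated start. The capitals mark the start base and the unbroken pyrimidines after it where the start base is C. RPS13 and RPS15 had the lowest and the highest mean ratio in the channel 2 reading, RPL22 the lowest mean in HT-29, RPL13A, RPS3A, RPL36 and RPL28 the ends of the order in the labels' channel order, and RPS27L 1 sign on all 4 arrays.
RPS13, chr11:17077648-17077707, minus strand: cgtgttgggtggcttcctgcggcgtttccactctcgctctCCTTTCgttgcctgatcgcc
RPS15, chr19:1438356-1438415, plus strand: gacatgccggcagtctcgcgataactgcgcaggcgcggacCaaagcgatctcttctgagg
RPL22, chr1:6199576-6199635, minus strand: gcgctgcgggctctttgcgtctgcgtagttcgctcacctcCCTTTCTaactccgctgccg
RPL13A, chr19:49487568-49487627, plus strand: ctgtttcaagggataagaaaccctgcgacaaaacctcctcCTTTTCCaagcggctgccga
RPS3A, chr4:151099588-151099647, plus strand: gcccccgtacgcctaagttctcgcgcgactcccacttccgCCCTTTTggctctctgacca
RPL36, chr19:5690255-5690314, plus strand: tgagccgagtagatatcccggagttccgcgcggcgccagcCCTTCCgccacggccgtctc
RPL28, chr19:55385892-55385951, plus strand: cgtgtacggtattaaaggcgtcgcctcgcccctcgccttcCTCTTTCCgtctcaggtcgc
RPS27L, chr15:63157458-63157517, minus strand: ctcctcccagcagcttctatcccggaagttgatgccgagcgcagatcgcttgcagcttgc
All but RPS27L began with C, and RPS15 had an A directly after it, so its run was the single C. RPS27L, a paralog of RPS27, began with G. Windows were listed for 52 of the 63 genes, 63 windows in all, since 8 genes had several. The start base was C in 43 of the 63 windows (68.3%), against 14.7% of 35116 windows of the whole table. A C that opened at least 5 pyrimidines was at the start of 38 windows (60.3%), against 4.07% of all windows; by gene this was 38 of 52 (73.1%) against 5.14% of 27305. Within 250 bases before and 50 after the start, the members' windows held a median of 23 CpG dinucleotides, the sites that the drug's target enzymes methylate, against 14 over the whole table. RPL28 had 37 and RPL22 had 23. These are letters in the annotated sequence, and no methylation was measured here.

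The question put to these genes was whether their RNA changed with the drug in both lines. By limma over the 2 line means with Benjamini-Hochberg adjustment, 0 of the 63 ribosomal protein genes passed an adjusted p of 0.05 in the channel 2 reading, where 0.236% of all genes did (16 higher, 4 lower). In the labels' channel order again 0 passed, where 0.685% of all genes did (56 higher, 2 lower). At an unadjusted p under 0.05, 2 members passed in the channel 2 reading (3.17%), RPS15 and RPS13, against 4.99% of all genes, and 9 in the labels' order (14.3%), against 11.0%. The limma standard error was 0.22 on the log2 scale for every gene (n = 2 line means), and the members' means ran from −0.51 for RPS13 to 0.58 for RPS15. At least 2-fold on both arrays with 1 sign was reached by 0 members in either line and in either reading. The share of all genes that did so was 0.179% in DLD-1 and 0.154% in HT-29 in the channel 2 reading, and 0.294% and 0.237% in the labels' order.

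**Figure D1:**
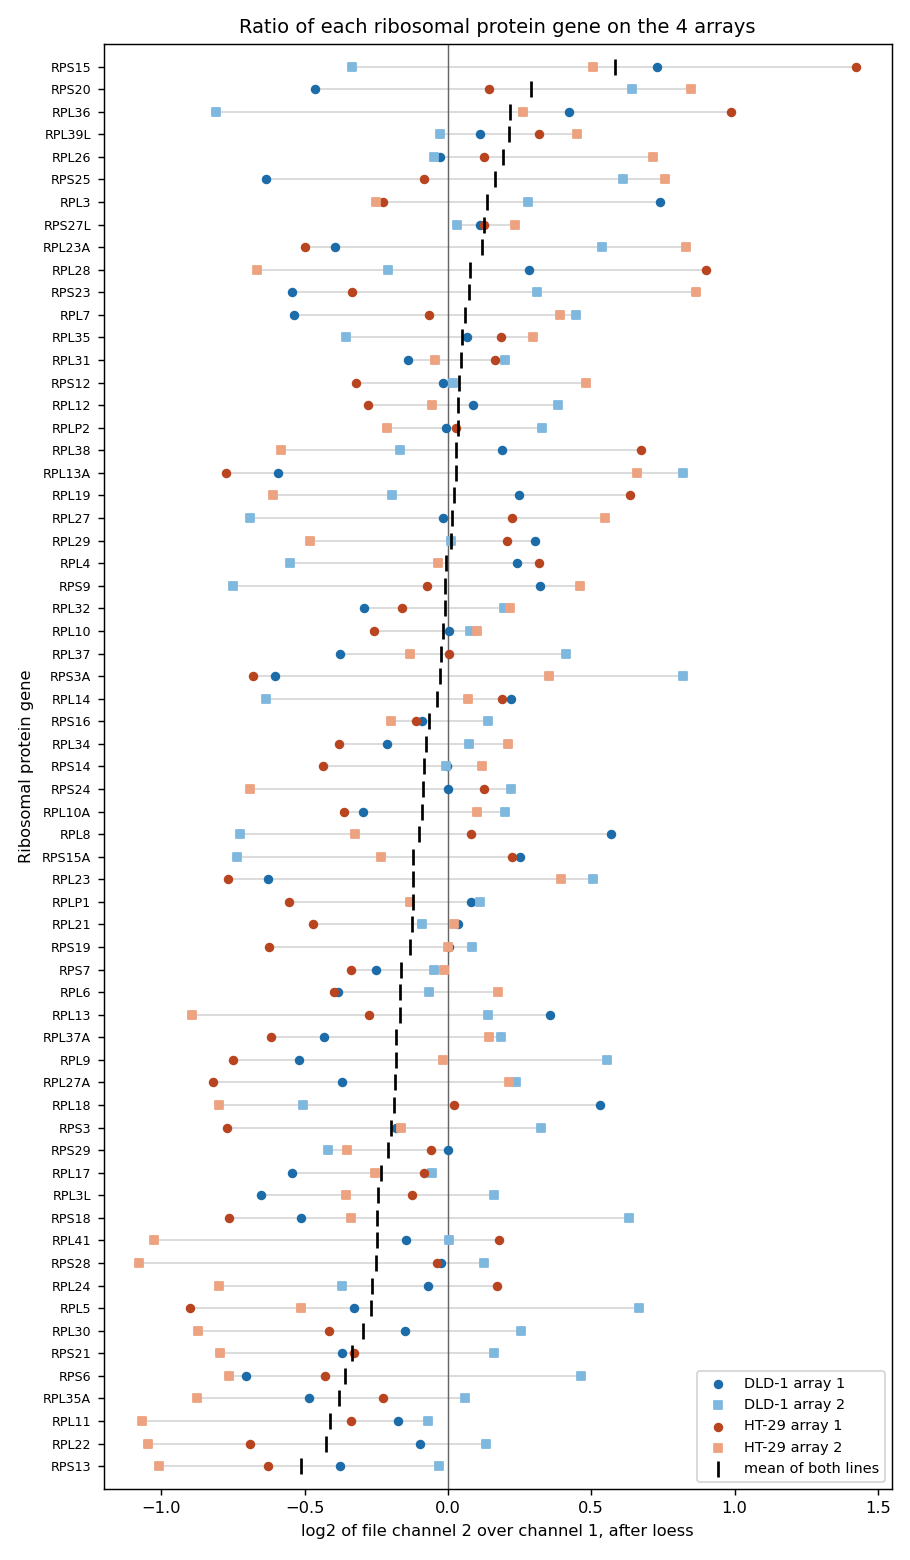
Log2 ratio of file channel 2 over channel 1 (horizontal) of the 63 ribosomal protein genes (vertical, ordered by the mean of both lines, the black tick), with blue for DLD-1, red for HT-29, circles for array 1 and squares for array 2. Most genes have arrays on both sides of 0; RPS15 at the top reaches 1.42 on HT-29 array 1, and RPS28, RPL11, RPL22, RPL41 and RPS13 lie below −1 on HT-29 array 2.

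As a group the genes had a median of −0.08 in the channel 2 reading, against 0.01 over all genes. In DLD-1 the median was −0.01, above the −0.04 of all genes, and in HT-29 it was −0.15, below the 0.04 of all genes. Without HT-29 array 1 the members' median over both lines was −0.02, and so was that of all genes. By array the members' median was −0.09 and 0.08 in DLD-1 and −0.16 and −0.04 in HT-29, so the arrays of DLD-1 fell on either side of 0. A mean below 0 was found for 41 of 63 (65.1%), against 49.0% of all genes tested. The large subunit had 26 of 42 genes below 0 and a median of −0.06; the small subunit had 15 of 21 and −0.09. In the labels' order the median was −0.03, and 36 of 63 were below 0. The brightest 10% of genes by spot signal hold 61 of the 63 members, and the 786 others there had a median of 0.10 in the channel 2 reading and 0.03 in the labels' order.

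This group median depended on the loess curve, which is fitted over spot brightness, and the ribosomal protein spots lie at the bright end. The members' median intensity was between 16800 and 40000 per channel and array, against 581 to 2870 over all spots. Without the curve, with only each array's median set to 0, the members' median on array 1 was 0.09 (DLD-1) and 0.19 (HT-29), but on array 2 it was −0.56 (DLD-1) and −0.77 (HT-29). On each array 2, only 2 of the 63 genes were above 0, and on array 1 the count was 38 in DLD-1 and 49 in HT-29. The rest of the brightest 10% had medians of −0.02, −0.245, 0.24 and −0.05 on the same 4 arrays, also lower on DLD-1 array 2 but by less. In the channel 2 reading this setting gave a median of −0.27 with 59 of 63 genes below 0 and 0 called. In the labels' order it gave 0.45 with 61 of 63 above 0, and limma called 3 members higher after Benjamini-Hochberg adjustment: RPL19 (mean 0.93, adjusted p = 0.026), RPL28 (0.88, adjusted p = 0.045) and RPL38 (0.87, adjusted p = 0.048). Among all genes tested, 56 were then called higher and 3 lower. Over the alternative settings that tested them, 16 for RPL19 and RPL38 and 12 for RPL28, the limma adjusted p ran up to 0.9999. RPL28 rests in part on a spot that was dim on HT-29 array 1. The authors' deposited log2 table, which holds no intensity-dependent correction, had medians of 0.07, −0.505, 0.12 and −0.79 over the 61 members it covers in full. No direction of the group over both lines was therefore settled. Without loess the median was below 0 in the channel 2 reading, through array 2 alone, and above 0 in the labels' order. On array 1 the medians of both lines were above 0 without loess and below 0 after it. The cause of the shift on array 2 was not tested.

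**Figure D2:**
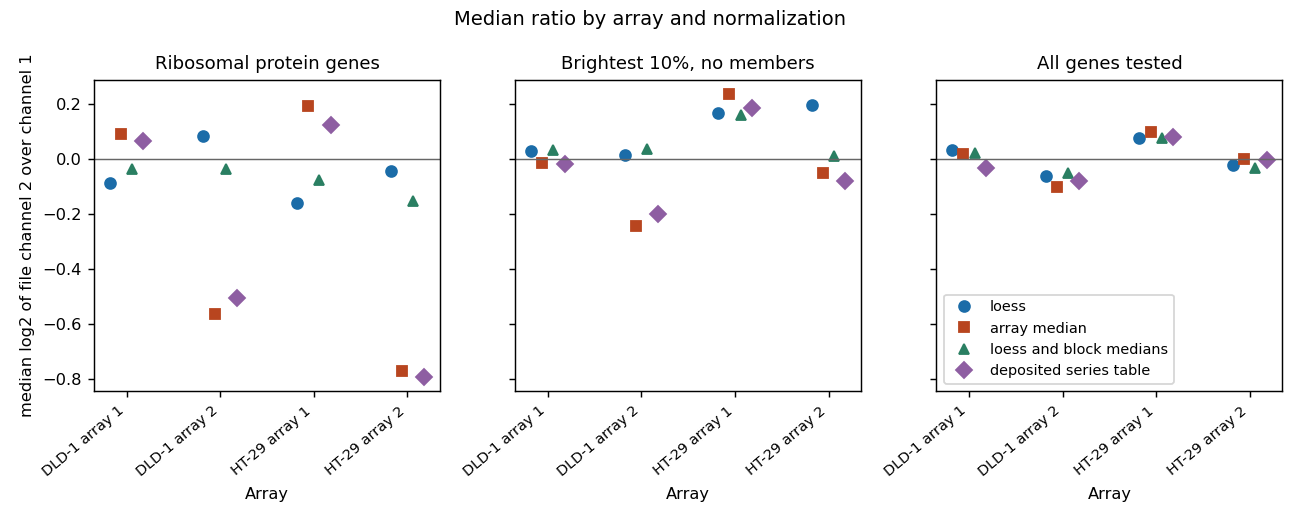
Median log2 ratio of file channel 2 over channel 1 (vertical) on each of the 4 arrays (horizontal) for the ribosomal protein genes, the rest of the brightest 10% of genes and all genes tested, with 1 symbol for each normalization. Without loess the ribosomal protein genes are at −0.56 and −0.77 on the array 2 of DLD-1 and HT-29, while after loess all 4 medians lie between −0.16 and 0.08.

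Among the small subunit proteins, RPS13, which contacts the large subunit at a bridge, had ratios of −0.38 and −0.03 on the DLD-1 arrays and −0.63 and −1.01 on the HT-29 arrays. All 4 were negative, and both HT-29 arrays were lower than both DLD-1 arrays. Its mean was −0.51 ± 0.22 (SE, n = 2 line means; adjusted p = 0.72 by limma with Benjamini-Hochberg adjustment), and in the labels' order it was 0.01. The RPS13 spot lay in printed block column 1, and with block medians set to 0 the RPS13 mean was −0.32. The part of print position in it was not tested. RPS29, a small zinc-binding protein, was negative on all 4 arrays as well, with 0.00 and −0.42 in DLD-1 and −0.06 and −0.35 in HT-29. Its array 1 values were near 0 in both lines.

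RPS15, a protein of the small subunit head, was the highest member, with 0.73 and −0.34 in DLD-1 and 1.42 and 0.51 in HT-29. On 3 of 4 arrays it was positive, and the exception was DLD-1 array 2. Its mean was 0.58 ± 0.22 (SE, n = 2; adjusted p = 0.50 by limma with Benjamini-Hochberg adjustment) and 0.50 in the labels' order. Leaving out DLD-1 array 2 gave a mean of 0.85 and an adjusted p of 0.012, the 1 call made among the members when an array was left out; over 16 alternative settings its limma adjusted p ran from 0.012 to 0.9999. Without that array 299 genes were called higher and 128 lower over all genes. The RPS15 spot lay in printed block column 3. The medians of all probes in that column had the same signs, 0.24 and −0.32 in DLD-1 and 0.19 and 0.45 in HT-29. With block medians set to 0 the RPS15 mean was 0.37, and the part of print position was not tested. RPS20, also in the head, had −0.46 and 0.64 in DLD-1 and 0.14 and 0.85 in HT-29, positive on both HT-29 arrays and split in DLD-1. RPS19, which is mutated in Diamond-Blackfan anaemia, had 0.01, 0.08, −0.62 and 0.00 in the same order, with only HT-29 array 1 away from 0.

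RPS27L was the 1 member positive on all 4 arrays, where 4.24% of all genes were. Its ratios were 0.11 and 0.03 in DLD-1 and 0.13 and 0.23 in HT-29, and its mean of 0.13 was smaller than the standard error of 0.22. In the labels' order the mean was −0.01, and without loess both array 2 values were negative (−0.425 and −0.358) and the mean was −0.12. It is known as a target of p53. RPS27 itself had no member spot.

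A ratio below 0 on all 4 arrays was found for 5 members, RPS13, RPL11, RPL17, RPS29 and RPS7, where 3.65% of all genes had one. Without loess, of these 5 only RPS13 was still negative on all 4 arrays. RPL11 and RPS7 belong to the 4 genes named above for MDM2 binding, which are not a full list of members that bind it. RPL11 had −0.17 and −0.07 in DLD-1 and −0.34 and −1.07 in HT-29, so its mean of −0.41 rested mostly on HT-29 array 2, and in the labels' order it was 0.16. With block medians set to 0 the RPL11 mean was −0.26. RPS7 had −0.25 and −0.05 in DLD-1 and −0.34 and −0.01 in HT-29, with both array 2 values near 0. RPL5, the partner of RPL11 in the 5S ribonucleoprotein, had −0.33 and 0.67 in DLD-1 and −0.90 and −0.51 in HT-29. Another RPL5 spot, named only by the scanner's description and not used, had 0.03 and 0.88 in DLD-1 and 1.04 and −0.42 in HT-29. It was thus positive on array 1 of both lines. RPL23 had −0.63 and 0.51 in DLD-1 and −0.77 and 0.39 in HT-29, negative on each array 1 and positive on each array 2. By their used spots these 4 named genes were negative on array 1 of both lines, where the treated channel is settled. Other members that bind MDM2 were not gathered, so no direction of such genes as a group is given. Of the 4 genes, 0 passed the test. On array 1, 40 of the 63 members were negative in DLD-1 and 40 in HT-29, against 46.9% and 43.3% of all genes. Without loess RPS7 was positive on array 1 of both lines and RPL11 on that of HT-29.

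The acidic stalk proteins recruit elongation factors to the large subunit. RPLP1 had 0.08 and 0.11 in DLD-1 and −0.55 and −0.13 in HT-29, positive in the first line and negative in the second. RPLP2 had −0.01, 0.33, 0.03 and −0.21, with both lines split, but channel 1 of its spot was not above background on HT-29 array 1. RPLP0, the stalk base, was found only by the scanner's description of 1 spot, with −0.42 and 0.69 in DLD-1 and −0.89 and 0.22 in HT-29. RPSA, the laminin receptor protein of the small subunit, was found the same way, with 0.32, −0.12, −0.22 and 0.23. In all, 10 spots of 9 genes, RPL5 among them, were named only by that description and were left out of the members' values. Adding those that passed the filter gave 70 genes, a median of −0.08 and again 0 called.

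Among the other large subunit proteins, RPL22, which also binds viral RNAs, had −0.10 and 0.13 in DLD-1 and −0.69 and −1.05 in HT-29. Both HT-29 arrays lay below both DLD-1 arrays, and the HT-29 mean was −0.87 in the channel 2 reading and 0.18 in the labels' order. With block medians set to 0 the RPL22 mean over both lines was −0.33, against −0.42 without that step. RPL36 had 0.42 and −0.81 in DLD-1 and 0.99 and 0.26 in HT-29. The RPL36 mean over both lines was 0.215, but 0.07 with block medians set to 0 and −0.03 without loess. RPL17, at the exit of the peptide tunnel, had −0.54, −0.06, −0.08 and −0.25, below 0 throughout. RPL6 was negative on both DLD-1 arrays (−0.38 and −0.07), as was RPL24 (−0.07 and −0.37), and each was split in HT-29. RPL29 was positive on both DLD-1 arrays, at 0.30 and 0.01, and split in HT-29, at 0.21 and −0.48.

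In 6 of the 63 genes (9.52%) both arrays of one line lay on one side of 0 and both of the other line on the opposite side, against 7.87% of all genes tested. RPL3, at the peptidyl transferase centre, had 0.74 and 0.28 in DLD-1 and −0.23 and −0.25 in HT-29. RPL13 had 0.35 and 0.14 in DLD-1 and −0.27 and −0.89 in HT-29. RPL12, at the stalk base, had 0.09 and 0.38 against −0.28 and −0.05. These 3 and RPLP1 were positive in DLD-1 and negative in HT-29. RPL27 had −0.02 and −0.69 in DLD-1 and 0.22 and 0.55 in HT-29. RPL26, which also binds p53 mRNA, had −0.03 and −0.05 in DLD-1 and 0.13 and 0.72 in HT-29. With block medians set to 0 the mean over both lines turned from 0.136 to −0.081 for RPL3. It also turned for RPL12 (0.03 to −0.09) and RPL27 (0.02 to −0.04). RPL13, RPLP1 and RPL26 kept the sign of their means, RPL26 at 0.02 against 0.19. The share was near that of all genes, the difference between lines was not tested, and the pattern holds for the channel 2 reading after loess alone: without loess 0 of the 6 showed it.

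Of the tissue-restricted paralogs, RPL3L was spotted along with its partner RPL3, and RPL39L without a member spot of its partner RPL39. RPL3L, the form of RPL3 made in striated muscle, had −0.65 and 0.16 in DLD-1 and −0.13 and −0.36 in HT-29, with 3 of 4 arrays negative. RPL39L, the form of RPL39 made in testis, had 0.11 and −0.03 in DLD-1 and 0.32 and 0.45 in HT-29, with 3 of 4 positive and a mean of 0.21 (adjusted p = 0.99 by limma with Benjamini-Hochberg adjustment). In the labels' order the mean was 0.00. RPL39 and RPL10L had no member spot. RPL39 and RPL39L encode nearly identical proteins, and cross-hybridisation between paralogs or pseudogenes was not tested, since probe sequences were not used here.

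Spots of the same gene did not always give the same sign. RPL10 and RPL31 each had 2 used spots. The first RPL31 spot gave −0.66 and 0.79 in DLD-1 and −0.36 and 0.26 in HT-29. The other gave 0.38 and −0.39, then 0.69 and −0.35. The sign differed between the spots on all 4 arrays, with a widest gap of 1.18, yet their means differed by 0.07. The RPL10 spots differed by up to 1.16 on an array (HT-29 array 1) and by 0.15 in their means.

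RPL37A, a zinc finger protein of the large subunit, was printed once as a gene spot and 24 more times as a positive control. The gene spot had −0.43 and 0.18 in DLD-1 and −0.62 and 0.14 in HT-29. The control spots had medians of −0.42 and 0.02 in DLD-1 and −0.22 and −0.06 in HT-29, with SDs of 0.13, 0.15, 0.33 and 0.60 in the same order. On the HT-29 arrays they fell apart by printed block column. On HT-29 array 2 the 12 spots of column 3 had a median of 0.88 (−0.02 to 1.01), and the 12 of column 1 had −0.345 (−0.47 to −0.10). On HT-29 array 1 the order was the opposite, −0.47 in column 3 and 0.10 in column 1. Spots of 1 gene thus gave ratios up to 1.48 apart on HT-29 array 2, where the SD over the members was 0.54. With each block's median set to 0 the SD of the control spots was 0.28 on HT-29 array 2 but 0.47, 0.39 and 0.50 on the other arrays in order, wider than before. Block position held 45.2%, 31.5%, 23.2% and 49.7% of the variance of all ratios on the 4 arrays. Across the 65 member spots, the correlation of the ratio with the median of the spot's own block was 0.60 on HT-29 array 2 and 0.25 to 0.29 on the others; the spots of an array share its RNA and print.

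**Figure D3:**
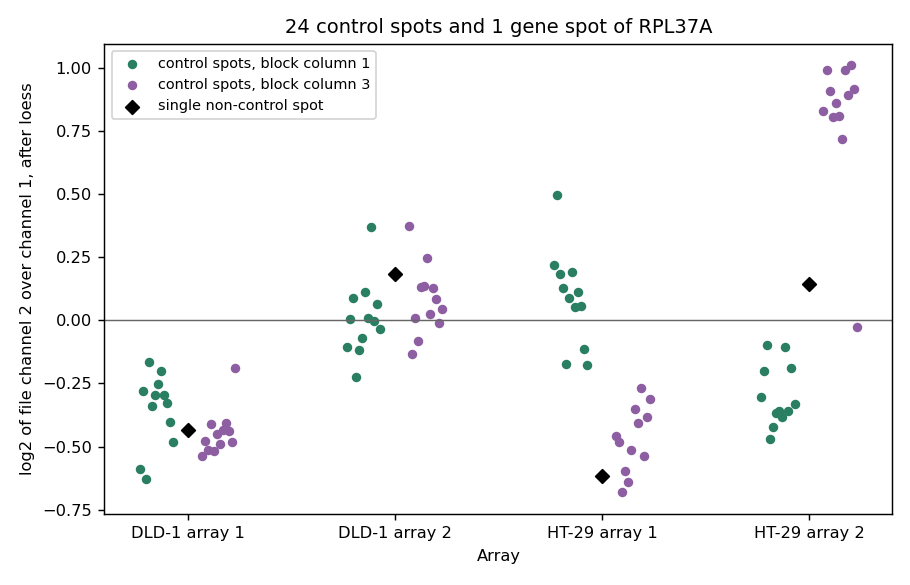
Log2 ratio of file channel 2 over channel 1 (vertical) of the 24 RPL37A control spots, 12 in block column 1 (green) and 12 in block column 3 (purple), and of the single RPL37A gene spot (black diamond) on each array (horizontal). The columns overlap on the DLD-1 arrays and stand apart on the HT-29 arrays, by more than 1 log2 unit at the medians of HT-29 array 2.

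In DLD-1 the members' line means were spread more widely in the labels' channel order (SD over genes 0.34) than in the channel 2 reading (0.15); in HT-29 the SDs were 0.35 and 0.36. Across the 63 genes the ratios of DLD-1 array 1 and array 2 had r = −0.68, and those of array 1 of both lines r = 0.60; over all genes the values were −0.40 and 0.47. The HT-29 arrays had r = 0.01. These correlations are across genes, which are not independent replicates. Between the lines, the line means of the members had r = −0.06 in the channel 2 reading and 0.54 in the labels' channel order, against 0.08 and 0.19 over all genes. With block medians set to 0 these were −0.13 and 0.70 for the members and 0.09 and 0.39 for all genes. Treatment, dye and channel cannot be told apart in this pattern.

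Counts of signs showed the same shape. Negative on array 1 of both lines and positive on array 2 of both were 13 members (20.6%), where 5.64% of all genes were: RPL7, RPL10A, RPL13A, RPL23, RPL23A, RPL27A, RPL32, RPL34, RPL37A, RPS3A, RPS12, RPS23 and RPS25. The opposite, positive on both array 1 and negative on both array 2, held for 7 members (11.1%), close to the 10.2% of all genes: RPL4, RPL8, RPL18, RPL19, RPL28, RPL38 and RPS15A. On array 1 alone, where the labels and the channel 2 reading give the same direction, 32 members (50.8%) were negative in both lines, against 29.7% of all genes, and 15 (23.8%) were positive in both, against 39.6%. On array 2 alone, 17 (27.0%) were positive in both lines against 13.7% of all genes, and 13 (20.6%) were negative in both against 20.8%. These counts are after loess and carry no test. Without loess they turned: 0 members were negative on array 1 and positive on array 2 of both lines (5.31% of all genes), and 32 (50.8%) were the opposite (11.2% of all genes). On array 1 alone 10 were then negative in both lines (15.9%, against 29.6%) and 34 positive (54.0%, against 39.7%). On array 1 the treated RNA is always in Cy5, so treatment and dye cannot be told apart there.

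**Figure D4:**
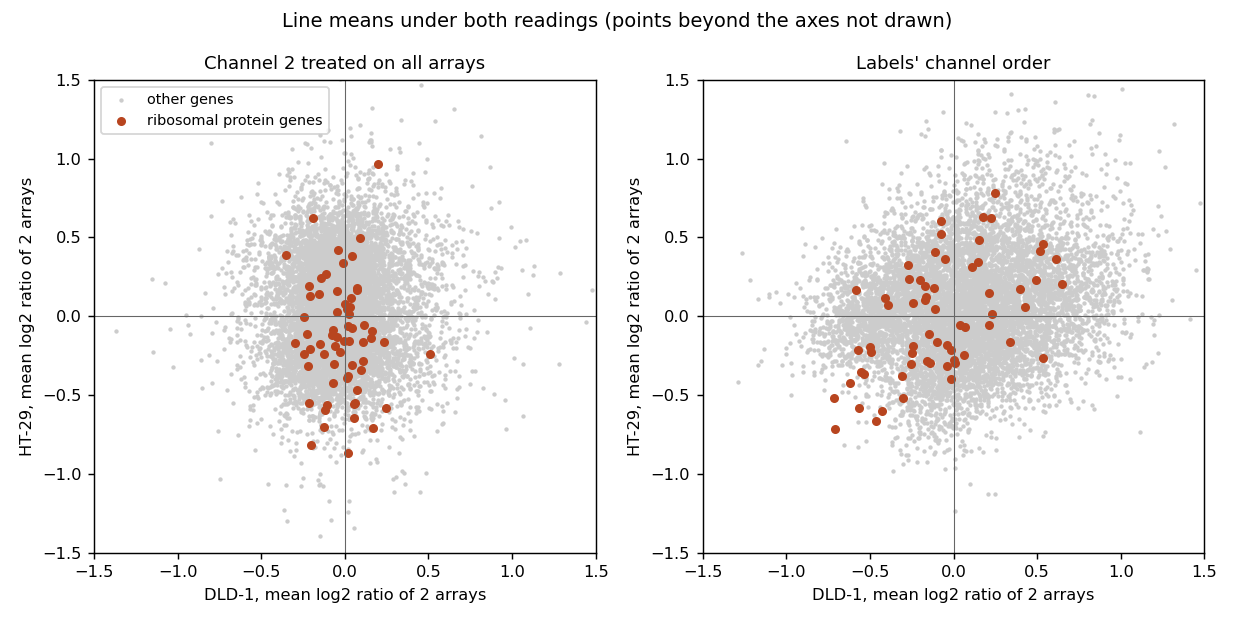
Mean log2 ratio of the 2 arrays in HT-29 (vertical) against DLD-1 (horizontal) for the 63 ribosomal protein genes (red) and all other genes (grey), with channel 2 as treated on all arrays (left) and in the labels' channel order (right). The red points show no slope on the left (r = −0.06) and a slope on the right (r = 0.54).

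In the labels' order the lower end held RPL13A, part of the complex that silences inflammatory messages, at −0.71 (DLD-1) and −0.72 (HT-29). RPL13A had −0.59 and 0.82 on the DLD-1 arrays and −0.77 and 0.66 on the HT-29 arrays, so each pair lay on opposite sides of 0 and the channel 2 mean was 0.03. RPS3A followed with −0.60 and 0.82 in DLD-1 and −0.68 and 0.35 in HT-29. RPL23, RPL23A, RPS25, RPS23, RPS20 and RPL9 made up the rest of the lowest 8. The upper end held RPL28 (line means 0.25 and 0.78, DLD-1 first), RPS15 (0.53 and 0.46), RPL36 (0.62 and 0.36) and RPL18 (0.52 and 0.41), then RPL8, RPL19, RPL38 and RPS15A. The RPL28 mean in HT-29 rests in part on array 1, where channel 1 of its spot was not above background. The lowest adjusted p among the members in this order was 0.14, for RPL13A (limma with Benjamini-Hochberg adjustment). The position in this order went with spot brightness: the correlation of the labels'-order mean with the average signal was −0.67 across the members and −0.12 over all genes. RPL13A, RPS3A and RPL23 had average signals of 15.5 log2 units, and RPS15 and RPS15A had 12.2 and 12.7. Spot brightness depends on the probe as well as on the RNA, and its part in the order was not tested.

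The average signal of both channels does not depend on which channel is treated, so it was compared between the lines. After scaling the arrays to 1 distribution, it was at least 2-fold lower in HT-29 with no overlap of arrays for 3 members, RPL32, RPL12 and RPL17, where 9.54% of all genes were, and at least 2-fold higher for 0, where 4.52% were. Without the size limit, 23 members were lower on both HT-29 arrays than on both DLD-1 arrays (21.5% of all genes) and 6 were higher (11.1% of all genes). The members' median difference was −0.20 and that of all genes −0.17. RPL12 had signals of 15.1 and 15.4 in DLD-1 and 14.2 and 13.8 in HT-29, a difference of −1.31. RPL17 had 15.6 and 15.3 against 14.6 and 14.0, a difference of −1.18. RPL3 and RPL26 followed with differences of −0.97 and −0.94, with arrays that did not overlap. On the high side, RPS21 had 14.2 and 14.6 in DLD-1 and 15.1 and 14.7 in HT-29, a difference of 0.48. RPL11 differed by 0.42, RPL37A by 0.18, RPS7 by 0.14 and RPL3L by 0.13; with only the array medians set equal RPS21 was at 0.12, and these 4 turned to −0.10, −0.10, −0.15 and −0.06. With only the medians of the arrays set equal, the count of lower members was 14 of 63 (22.2%) against 13.9% of all genes, and the medians were −0.65 and −0.33.

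**Figure D5:**
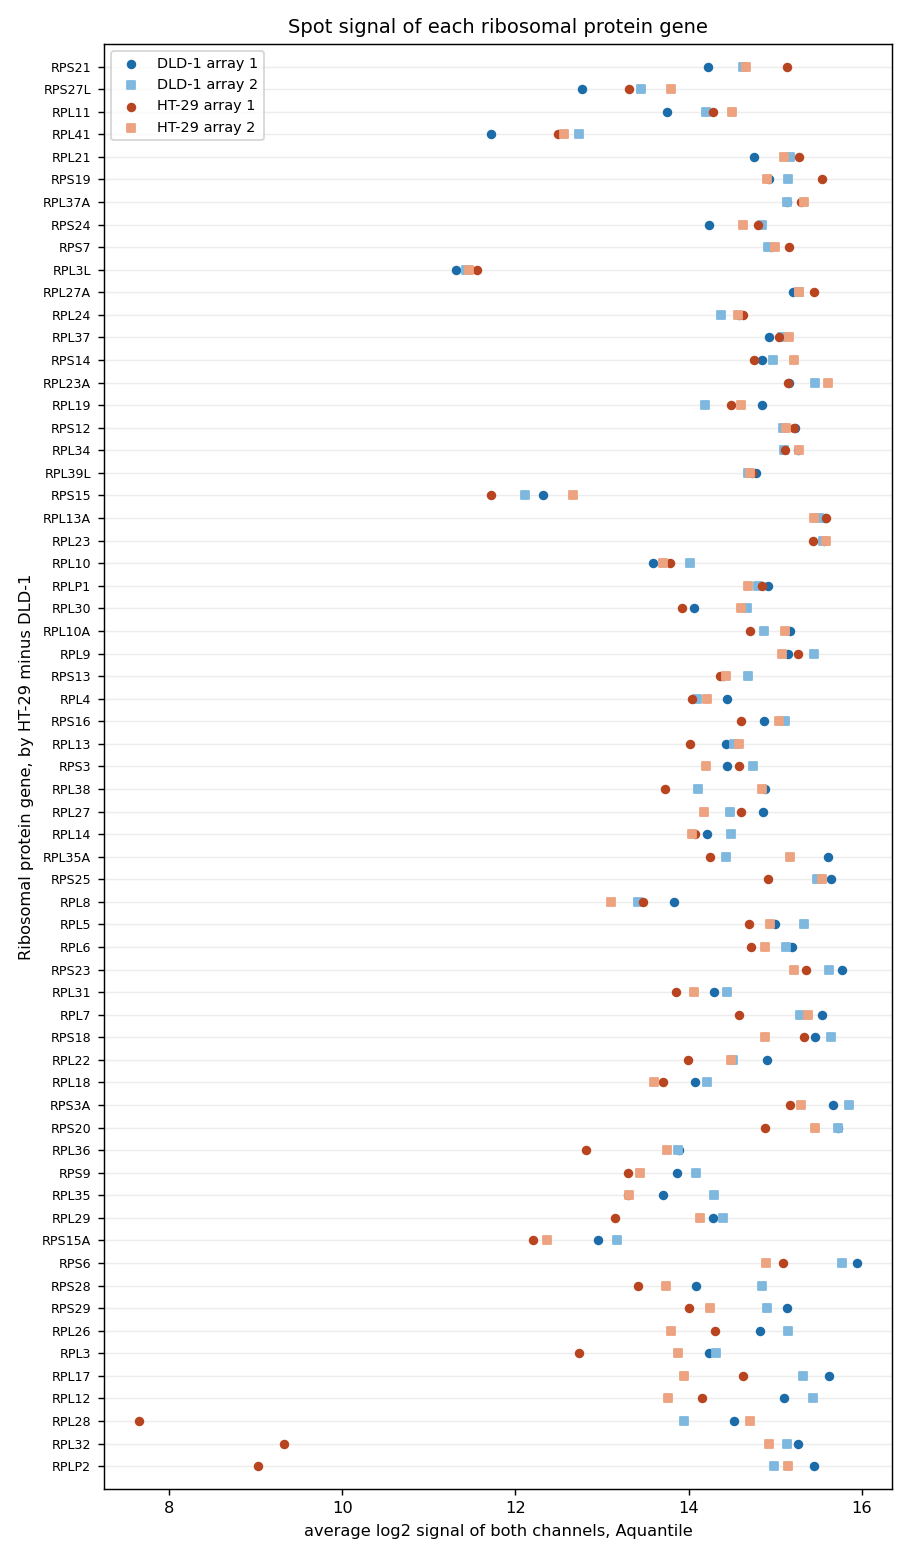
Average log2 signal of both channels (horizontal) for each of the 63 ribosomal protein genes (vertical, ordered by HT-29 minus DLD-1) on the 4 arrays, with blue for DLD-1, red for HT-29, circles for array 1 and squares for array 2. RPS21 lies at the top with a difference of 0.48, and the spots of RPLP2, RPL32 and RPL28 on HT-29 array 1 lie far to the left of their other 3 arrays.

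On HT-29 array 1, 3 member spots were far dimmer than on the other arrays, those of RPL28, RPLP2 and RPL32. The difference was −5.79 log2 units for RPL32, and RPL28 and RPLP2 lay lower still; no size is given for them, since channel 1 of both was not above background there. These were the 3 lowest of the 8470 genes in this respect. RPL28 and RPLP2 share a block, whose 338 other used spots had a median difference of −1.40, and RPL32 lay in the adjoining block, where it was −1.07, against −0.02 over all genes. The cause was not tested. Without these 3 spots, 60 members remained, with a median ratio of −0.09 (−0.16 in HT-29), a median signal difference of −0.17 and 2 members at least 2-fold dimmer in HT-29, RPL12 and RPL17.

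Other genes of protein synthesis were given the same test. Of 43 listed translation factors and related genes 29 were tested, of 40 ribosome biogenesis genes 26, and of 61 mitochondrial ribosomal protein genes 55. Of the 110 genes 0 were called in the channel 2 reading by limma with Benjamini-Hochberg adjustment, and 5 had an unadjusted p under 0.05, as had 423 of the 8470 genes (4.99%). In the labels' order EIF4B, which helps unwind messages, was called higher (mean 0.87, adjusted p = 0.044, up to 0.9999 in other settings), from 0.21 and −0.47 in DLD-1 and 0.84 and −1.97 in HT-29. The medians were −0.07 for translation, 0.04 for biogenesis and −0.09 for mitochondrial ribosomal proteins in the channel 2 reading, and 0.09, 0.17 and 0.19 in the labels' order, where the cytoplasmic ribosomal proteins had −0.03. FAU, which encodes a ubiquitin-like protein fused to the small subunit protein RPS30, had 0.70 and −0.63 in DLD-1 and 0.84 and 0.59 in HT-29.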

How the data were processed

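Total RNA of treated and untreated cells was amplified to amino allyl aRNA and coupled to Cy3 or Cy5, per the labels. The scanner files that the authors deposited give, per channel, the intensity of 30336 spots in 48 printed blocks, the local background with its SD, and the background-subtracted intensity. The authors' deposited log2 values are the ratio of the background-subtracted channels shifted by 1 constant per array; their scale and centring were found from the scanner values, and their direction on the dye-exchanged arrays stays unknown. The scanner and its software are not given in the sources used.

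Values were recomputed in R 4.3.3 with limma 3.58.1: normexp background correction (offset 50), then loess within each array (1 curve, control and bad spots at weight 0). Of 29640 non-control spots, 49 were marked bad, and 18868 had at least 1 channel more than 2 background SDs above background on every array and were used; among them were 65 of the 66 member spots. At most 1 member spot per array was saturated. Spots of a gene and the 2 arrays of a line were averaged, and a two-sided limma fit (lmFit, eBayes) set the mean of the 2 lines against 0. P-values were adjusted by Benjamini-Hochberg over every gene tested. Gene names came from the platform annotation: 14200 probes had 1 symbol, 447 several and 14993 none. Average signals were scaled with Aquantile. The number of arrays limits the precision. Only the limma step on line means was tried on simulated data. Its noise was independent between genes and arrays, without the block pattern and correlations seen here. It therefore cannot show how often changes of the members' size would be called.

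The genes named with values were those with the highest and lowest means among genes of 1 sign, the highest and lowest signal differences, the MDM2-binding, stalk, disease and paralog genes, and those with several spots; RPL13A, RPS3A, RPL28, RPL36, RPL18, RPL19, RPL38 and EIF4B were named after their values were seen. The members and all lists were chosen with earlier results of these data known. Alternatives covered the channel order, background, normalization, filter, probe choice, each array left out and the arrays as separate replicates. Spots named only by the scanner description, the labels' order without loess, and the removal of the 3 dim spots were added after seeing the data.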

Additional observations from a re-analysis of the deposited data

Results flagged for a closer look

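In 6 ribosomal protein genes both DLD-1 arrays lay on one side of 0 and both HT-29 arrays on the other, with channel 2 as treated on all arrays. The HT-29 minus DLD-1 difference of the log2 ratio was −0.83 for RPL13, −0.75 for RPL3, −0.44 for RPLP1 and −0.40 for RPL12, and it was 0.46 for RPL26 and 0.74 for RPL27. The difference between the lines was not tested, and 667 of the 8470 genes tested (7.87%) showed such a pattern against 9.52% of the members. Without loess 0 of these 6 genes showed it. With block medians set to 0 the mean over both lines changed sign for RPL3, RPL12 and RPL27, and not for RPL13, RPLP1 and RPL26.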

How the results depend on the processing

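The count of members called was 0 in every setting tried apart from the following: without 1 array it ranged from 0 to 1 (RPS15, without DLD-1 array 2), and in the labels' order without loess it was 3, all higher. The count over all genes, 20, was 58 in the labels' order, 59 there without loess, 10 with the authors' background-subtracted intensities, 2 with block medians set to 0, 13 with both channels required above background, 38 with no filter, 9 in the deposited table, 7 with the 4 arrays as separate replicates and 8 to 427 without 1 array. The members' median was −0.27 without loess, −0.27 in the deposited table and 0.45 in the labels' order without loess; in the same order it was −0.23, −0.22 and 0.34 in DLD-1 and −0.30, −0.33 and 0.48 in HT-29, where the labels' order alone gave −0.054 and leaving out an array −0.161 to −0.0436. The number at least 2-fold higher in HT-29 was 0 to 1 without 1 array and 1 in the labels' order without loess, and at least 2-fold lower 0 to 5 without 1 array, where the single array left decides. The number of members with at least 2-fold lower signal in HT-29 was 14 with array medians set equal and 3 to 9 without 1 array (9 without HT-29 array 2), and the median signal difference was −0.65 and −0.308 to −0.0914. With array medians set equal the signal difference turned for 4 named genes, to −0.102 for RPL11, −0.104 for RPL37A, −0.146 for RPS7 and −0.0625 for RPL3L; the cause of these moves was not tested. The members' median over both lines was −0.133 to −0.0247 without 1 array. No paired analysis was possible because the replicate numbers mark only the dye orientation of the 2 arrays that are averaged in a line, treated and untreated RNA already being paired within each ratio, and because the comparison of signal between the lines comes from no test.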
